A study of Rattus norvegicus with 6 samples.

Results

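The ligands of the epidermal growth factor receptor (EGFR) family were examined in back skin of Sprague-Dawley rats, an outbred laboratory strain, by RNA sequencing. The set held 8 genes, Nrg1, Epgn, Areg, Ereg, Hbegf, Tgfa, Btc and Egf, out of 34225 loci in the count table, and all 8 were found there. They were chosen by name, with earlier results of these data known. There were 3 groups of 2 libraries. In the gefitinib group, rats received 80 mg/kg gefitinib by mouth each day, and in the afatinib group 30 mg/kg afatinib by mouth each day, in both cases up to the point at which a rash appeared. The remaining group was untreated, and the labels name no vehicle for it. All 3 groups share the strain and the tissue, and no transgene or mutation is named for any of them. The sample titles call the untreated group WT and the others Ge and Af, so a genotype term stands in the untreated titles only. The labels give neither age nor sex, nor the number of days to the rash. The labels number 2 replicates in each group without stating that they are separate animals, so the p-values measure the spread between these libraries, which may be technical.

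EGFR ligands are made as membrane-anchored precursors, and metalloproteases of the ADAM family cut most of them loose from the cell surface. The released ligands bind EGFR or its relatives ERBB3 and ERBB4, which pair with each other or with ERBB2, a partner that needs no ligand, and signal through the ERK and AKT pathways. In skin, keratinocytes of the epidermis and hair follicle both secrete several of these ligands and respond to them. Gefitinib blocks the EGFR kinase reversibly and afatinib blocks EGFR, ERBB2 and ERBB4 by a covalent bond, so both act below the ligands. The comparison with untreated skin asks which ligand transcripts differ in skin with a rash from each inhibitor.

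Of the genes described here, Areg, Ereg, Epgn and Btc lie next to each other in 1 cluster on chromosome 14. Their start regions are shown because Areg and Epgn passed the test with both inhibitors and their neighbour Btc passed it with neither, and Tgfa is added as a called ligand on another chromosome. The RefSeq promoter table of build GRCr8 held 6 of the 8 ligands, and Nrg1 and Ereg were not among them. Each sequence is the 250 bases before the annotated start, written 5′ to 3′ along the gene, with capitals marking matches to any of 4 motifs. The motifs, searched on both strands, were TGANTCA, the binding motif of AP-1, TGACGTCA, the cAMP response element, TATAAA, the TATA box, and GGGCGG, the GC box. The Areg window is chr14:17265642-17265891 on the minus strand, the Epgn window chr14:17369001-17369250 on the minus strand, the Btc window chr14:16992418-16992667 on the plus strand and the Tgfa window chr4:120175469-120175718 on the plus strand.
Areg: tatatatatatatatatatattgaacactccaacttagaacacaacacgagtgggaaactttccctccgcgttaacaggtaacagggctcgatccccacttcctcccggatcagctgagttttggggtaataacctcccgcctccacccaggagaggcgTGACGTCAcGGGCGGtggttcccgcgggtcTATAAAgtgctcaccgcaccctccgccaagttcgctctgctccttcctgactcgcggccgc
Epgn: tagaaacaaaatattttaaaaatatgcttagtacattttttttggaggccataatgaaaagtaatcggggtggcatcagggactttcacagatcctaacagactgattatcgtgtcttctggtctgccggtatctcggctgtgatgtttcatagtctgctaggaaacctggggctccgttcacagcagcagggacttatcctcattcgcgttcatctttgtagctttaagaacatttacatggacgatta
Btc: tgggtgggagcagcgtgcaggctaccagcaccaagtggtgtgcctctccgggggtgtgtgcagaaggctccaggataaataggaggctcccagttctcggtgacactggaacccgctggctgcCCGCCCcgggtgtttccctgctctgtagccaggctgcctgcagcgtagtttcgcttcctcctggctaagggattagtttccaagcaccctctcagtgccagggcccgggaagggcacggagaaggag
Tgfa: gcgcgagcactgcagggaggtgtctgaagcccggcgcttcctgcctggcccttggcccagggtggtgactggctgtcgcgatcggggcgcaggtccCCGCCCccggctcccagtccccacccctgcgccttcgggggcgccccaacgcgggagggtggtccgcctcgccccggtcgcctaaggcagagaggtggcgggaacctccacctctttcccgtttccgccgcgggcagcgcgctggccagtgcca

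The Areg window held the cAMP response element, a GC box and a TATA box, which began at positions -91, -82 and -61 before the start and did not overlap. The Btc and Tgfa windows each held 1 GC box, at -127 and -154, both on the opposite strand. The Epgn window held none of the 4 motifs, and it was also the window with the lowest G and C content, at 41.2%, against 54.4% for Areg, 62.8% for Btc and 74.4% for Tgfa. Among all 33469 promoters of that length in the table, 1.59% held the cAMP response element, 12.9% the TATA box, 30.5% the GC box and 6.34% the AP-1 motif. The AP-1 motif was found in 0 of the 6 ligand windows, those of Hbegf and Egf included. These matches describe letters in 1 window only.

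Library totals lay between 17206456 and 22086673 counts. Summed levels of cell type markers, taken as a reading of tissue make-up, differed along with treatment (CPM, counts scaled to the TMM-adjusted library size, summed over each list). Basal keratinocyte markers, 8 of 8 of which were in the file, summed to 2500 to 2524 CPM with gefitinib and 2488 to 4203 CPM with afatinib, against 886 to 1550 CPM in untreated skin. Hair follicle and shaft markers, 11 of 12 in the file, summed to 4169 to 5620 and 1286 to 4420 CPM, against 81.7 to 297 CPM, and neutrophil markers, 8 of 8 in the file, to 5.65 to 7.65 and 12.2 to 24.3 CPM, against 0.931 to 1.04 CPM. Skeletal muscle markers, 10 of 12 in the file, went the other way in sum, with 33160 to 67910 CPM and 32880 to 147800 CPM, against 210200 to 243600 CPM in untreated skin. Of these 10, edgeR and limma-voom called 0 with either inhibitor, and DESeq2 called 10 with gefitinib and 1 with afatinib. Of the 11 hair markers edgeR called 11 with gefitinib and 8 with afatinib, DESeq2 11 and 11, and limma-voom 10 and 0. Only 4 of the neutrophil markers passed the filter on low counts, of which edgeR called 1 and 1, DESeq2 2 and 4, and limma-voom 0 and 0. Of all tested genes edgeR called 12.3% higher and 5.45% lower with gefitinib, and 3.6% and 0.372% with afatinib. In either direction DESeq2 called 28.6% and 12.1%, and limma-voom 15.6% and 0.207%. Afatinib replicate 1 stood apart from its pair, with 13.2% of its counts in muscle markers against 4.58% in afatinib replicate 2, and 0.115% in hair markers against 0.616%. In no group was a basal keratinocyte, hair or Schwann cell marker at 0, and 2 of the 8 neutrophil markers were at 0 in both gefitinib libraries and 1 in both untreated libraries. The part of tissue make-up in the ligand results was not tested. In whole skin, a lower level cannot be told apart between fewer cells of a type and less RNA per cell, nor a higher level between more cells and more RNA per cell.

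Transcripts of Nrg1, Areg, Epgn, Tgfa and Ereg were higher in all 4 libraries of skin with a rash than in both untreated libraries. Of all tested genes, 38.8% had both gefitinib libraries above both untreated ones, and 31.5% had both afatinib libraries above them. The share of genes with all 4 above was not computed. In edgeR's quasi-likelihood test with gefitinib, 4 of the 8 ligands rose (Nrg1, Areg, Epgn and Tgfa) and 0 fell, against 12.3% of the 16398 tested genes called higher and 5.45% called lower. With afatinib, 3 of 8 rose (Nrg1, Areg and Epgn) and 0 fell, against 3.6% and 0.372% of the tested genes. In the mean of both inhibitors, 4 of 8 rose and 0 fell, against 11.0% and 4.93%; this mean uses the same libraries as the comparisons it averages. With DESeq2 5 ligands passed with gefitinib, Hbegf on the lower side, and 4 with afatinib, at a background of 28.6% and 12.1% of tested genes, and with limma-voom 3 and 0, at 15.6% and 0.207%. The median log2 fold change of the 8 ligands was 1.29 with gefitinib and 1.86 with afatinib, beside 0.04 and 0.09 over all tested genes. The 8 ligands were chosen with earlier results of these data known, so these counts and medians describe the set and are no test of it. The 2 comparisons share their untreated libraries. All 8 ligands entered the test, but Nrg1, Areg, Ereg and Btc passed the filter on low counts through the inhibitor libraries alone.

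**Figure D1:**
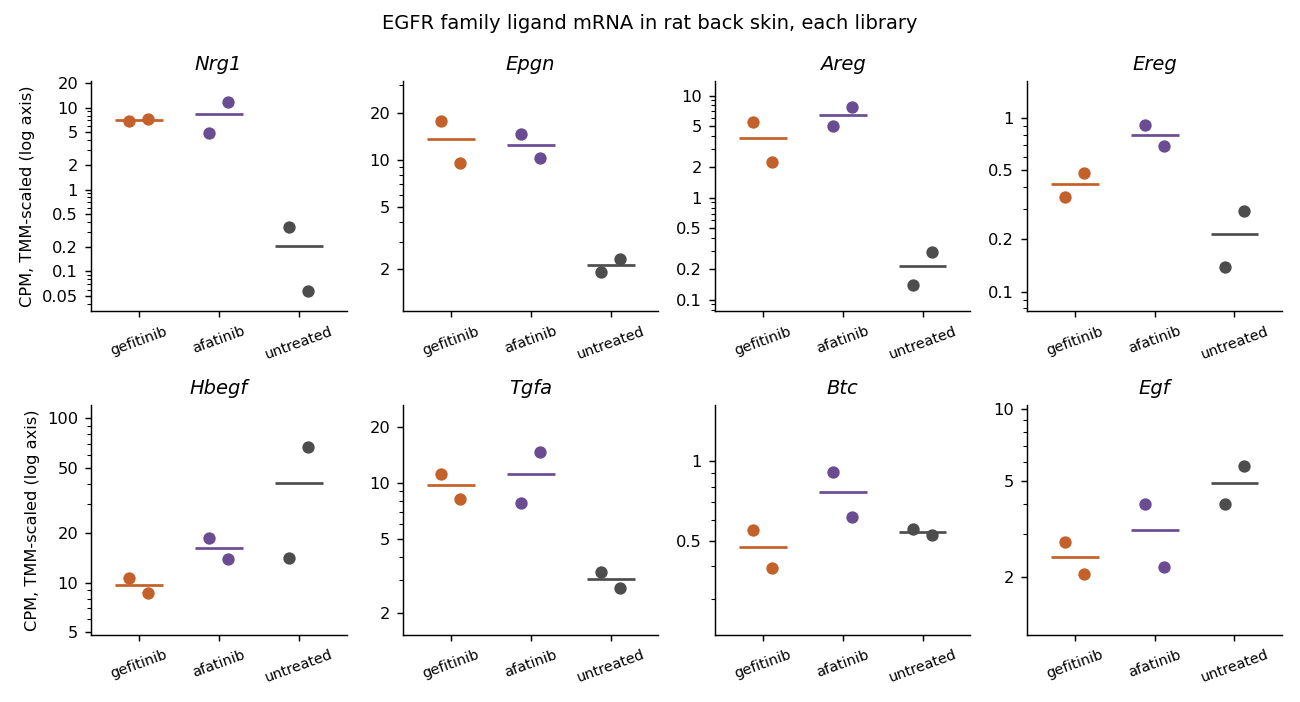
TMM-scaled CPM of each ligand in each library on log axes that differ between panels; points are libraries and bars are means of 2 libraries for gefitinib, afatinib and untreated skin. Nrg1, Epgn, Areg, Ereg and Tgfa have both gefitinib and both afatinib points above both untreated points, and Hbegf has 1 untreated library at 67.4 CPM.

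Areg encodes amphiregulin, an EGFR ligand that keratinocytes make and use for their own growth. The files give coordinates without naming a genome build, and in them Areg (ENSRNOG00000002754) lies on chromosome 14 from 18521930 to 18531179 on the minus strand. Its level was 5.53 and 2.23 CPM in the gefitinib libraries and 5.07 and 7.71 CPM in the afatinib libraries, against 0.138 and 0.291 CPM in untreated skin. All 4 inhibitor libraries lay above both untreated libraries, which held 2 and 5 reads of the gene. Areg passed the filter on low counts through the inhibitor libraries alone. Areg rose with gefitinib by a log2 fold change of 4.11 ± 0.718 (SE, edgeR adjusted p = 0.0155) and with afatinib by 4.83 ± 0.726 (adjusted p = 0.0312). Over summed counts the ratio was 18.0 with gefitinib (192 reads against 7, 95% exact interval 8.55 to 45.3) and 30.4 with afatinib (278 reads against 7, 14.6 to 76.4). These intervals cover counting error only. The gefitinib value was 3.26 without gefitinib replicate 1 (adjusted p = 0.0531) and 4.76 without untreated replicate 2 (adjusted p = 0.0969), and the afatinib value 5.47 without untreated replicate 2 (adjusted p = 0.175).

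Epgn encodes epigen, a low-affinity EGFR ligand. It lies 35250 bases beyond Ereg in the same cluster (ENSRNOG00000002782, chromosome 14, 18626644 to 18634309, minus strand). Its level was 17.8 and 9.63 CPM with gefitinib and 14.8 and 10.4 CPM with afatinib, against 1.94 and 2.33 CPM in untreated skin. The inhibitor libraries overlapped each other and stood apart from the untreated ones, which were close together. Epgn rose by 2.68 ± 0.434 on the log2 scale with gefitinib (edgeR adjusted p = 0.0142) and by 2.55 ± 0.433 with afatinib (adjusted p = 0.035), a 6.4-fold and a 5.86-fold difference. Scaled to basal keratinocyte markers neither passed, at 1.503 (adjusted p = 0.0553) and 1.12 (adjusted p = 0.128). The afatinib call was also lost with limma-voom (adjusted p = 0.0856) and with only the compared groups in the edgeR fit (adjusted p = 0.0721).

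Tgfa encodes transforming growth factor alpha, the keratinocyte ligand of EGFR whose loss in mice gives wavy hair (ENSRNOG00000016182, chromosome 4, 117962319 to 118046344, plus strand). It had 11.1 and 8.18 CPM with gefitinib and 7.80 and 14.5 CPM with afatinib, against 3.32 and 2.74 CPM in untreated skin. Again all inhibitor libraries were above both untreated libraries. Tgfa rose with gefitinib by a log2 fold change of 1.67 ± 0.426 (edgeR adjusted p = 0.0386). With afatinib the log2 fold change was 1.89 ± 0.428 and did not pass (adjusted p = 0.0569), although DESeq2 called it. The gefitinib call was lost with limma-voom (adjusted p = 0.057), with the replicate number as a block in edgeR (adjusted p = 0.0576) and scaled to basal keratinocyte markers (0.56, adjusted p = 0.48). The mean of both inhibitors passed at 1.78 ± 0.392 (adjusted p = 0.0274).

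Egf, the founding ligand of the family, is abundant in kidney and salivary gland rather than skin (ENSRNOG00000053979, chromosome 2, 68820615 to 68895920, plus strand). It had 2.78 and 2.06 CPM with gefitinib and 4.03 and 2.20 CPM with afatinib, against 4.01 and 5.76 CPM in untreated skin. Both gefitinib libraries were below both untreated libraries, and afatinib replicate 1 lay level with untreated replicate 1. The log2 fold changes of -1.01 ± 0.487 with gefitinib (edgeR adjusted p = 0.173) and -0.66 ± 0.485 with afatinib (adjusted p = 0.462) did not pass.

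Hbegf, Ereg and Btc encode ligands that bind both EGFR and ERBB4. Hbegf, the heparin-binding ligand that serves migrating keratinocytes in wounds, lies on chromosome 18 (ENSRNOG00000018646, 29329764 to 29340403, minus strand). Its level was 10.7 and 8.62 CPM with gefitinib and 18.7 and 14.0 CPM with afatinib, against 14.1 and 67.4 CPM in untreated skin. The untreated libraries differed from each other 4.78-fold, and untreated replicate 2 alone was far above all the others. The log2 fold change was -2.08 ± 0.647 with gefitinib (edgeR adjusted p = 0.0643) and -1.32 ± 0.632 with afatinib (adjusted p = 0.274), neither of which passed. Without untreated replicate 2 these values were -0.54 and 0.21, so the size of the difference, and with afatinib its sign, rested on that 1 library. Muscle markers summed to 210200 CPM in untreated replicate 2 and 243600 CPM in untreated replicate 1, and fibroblast markers to 9970 and 21050 CPM.

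Ereg, the gene of epiregulin, sits between Areg and Epgn (ENSRNOG00000002771, chromosome 14, 18576355 to 18591394, minus strand). It was scarce in every library, with 9 and 11 reads with gefitinib and 14 and 18 with afatinib, against 2 and 5 in untreated skin. In CPM these were 0.353 and 0.481, 0.910 and 0.694, and 0.138 and 0.291. The 3 groups did not overlap, with afatinib highest and untreated lowest, yet neither log2 fold change passed, at 0.91 ± 0.782 with gefitinib (edgeR adjusted p = 0.42) and 1.84 ± 0.769 with afatinib (adjusted p = 0.219). Scaled to basal keratinocyte markers, the gefitinib value was -0.25.

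Btc, the gene of betacellulin, is the cluster's outlying member, on the plus strand (ENSRNOG00000002728, chromosome 14, 18231860 to 18272484). It had 0.549 and 0.394 CPM with gefitinib and 0.910 and 0.617 CPM with afatinib, against 0.553 and 0.524 CPM in untreated skin, from 8 to 16 reads a library. The gefitinib and untreated libraries overlapped, and the afatinib libraries were slightly above the untreated ones. The log2 fold change was -0.19 ± 0.67 with gefitinib (edgeR adjusted p = 0.857) and 0.48 ± 0.664 with afatinib (adjusted p = 0.698), so no difference was detectable at this depth. Both signs depended on the scaling: the gefitinib value was 0.50 with library size only, and the afatinib value -0.92 when scaled to basal keratinocyte markers.

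Nrg1 encodes neuregulin 1, which binds ERBB3 and ERBB4 and not EGFR, and which is best known as the axonal signal for Schwann cell myelination (ENSRNOG00000010392, chromosome 16, 63837216 to 64057434, plus strand). The gene makes several isoforms, which counts per gene do not separate. Nrg1 had 6.90 and 7.31 CPM with gefitinib and 4.87 and 11.8 CPM with afatinib, against 0.346 and 0.0582 CPM in untreated skin. The untreated libraries held 5 reads and 1 read, and the lowest inhibitor library held 75. Nrg1 passed the filter on low counts through the inhibitor libraries alone. Its log2 fold change was 5.15 ± 0.79 with gefitinib (edgeR adjusted p = 0.0131) and 5.39 ± 0.793 with afatinib (adjusted p = 0.0308). The ratio of summed counts was 37.4 with gefitinib (343 reads against 6, 95% exact interval 17.0 to 103) and 48.5 with afatinib (380 against 6, 22.1 to 133), intervals of counting error only. The log2 fold change depended on which untreated library was kept. With gefitinib it was 6.79 without untreated replicate 1 and 4.34 without untreated replicate 2, and with afatinib 7.02 and 4.57. Without afatinib replicate 2 the afatinib value was 4.56, and none of these 5 values passed. Schwann cell markers, 8 of 8 in the file, summed to 127 to 220 CPM with gefitinib and 170 to 280 CPM with afatinib, against 919 to 1356 CPM in untreated skin, and their part in the Nrg1 result was not tested.

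**Figure D2:**
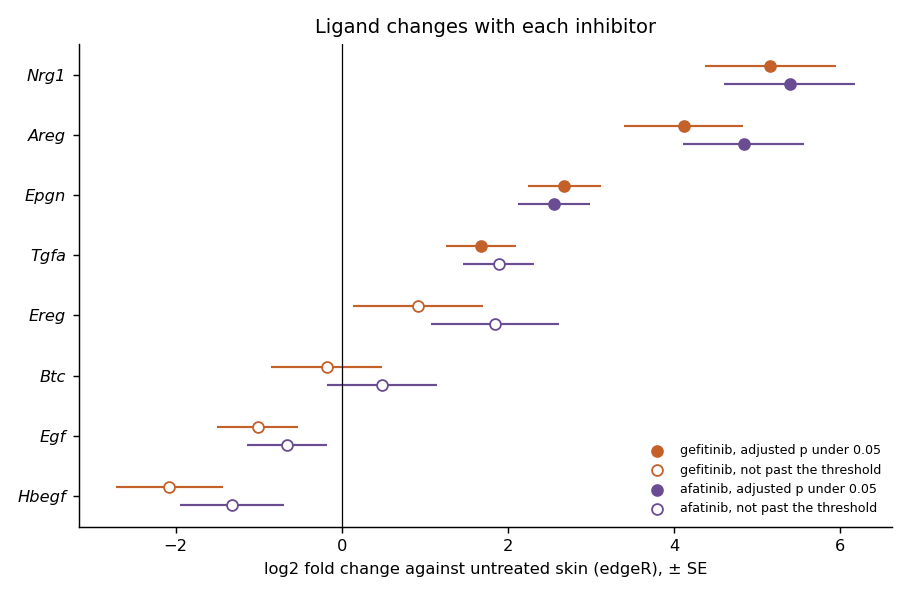
Log2 fold change (edgeR) of each ligand with each inhibitor against untreated skin, with bars of ± 1 SE. Filled points passed an adjusted p of 0.05. Nrg1, Areg, Ereg and Btc passed the filter on low counts through the inhibitor libraries alone. Nrg1, Areg and Epgn passed with both inhibitors and Tgfa with gefitinib, whereas the signs of Ereg with gefitinib and of Btc changed under another scaling and that of Hbegf with afatinib changed without 1 untreated library.

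Counting libraries rather than tests, both gefitinib libraries lay above both untreated libraries for 5 ligands and below them for 2, at a background of 38.8% and 33.9% of tested genes. Both afatinib libraries lay above both untreated ones for 6 ligands and below them for 0, at a background of 31.5% and 21.8%. The ligands whose 4 inhibitor libraries were all higher were Nrg1, Areg, Epgn, Tgfa and Ereg. The calls rested on both untreated libraries. With either of them left out, 0 ligands passed the edgeR test in any comparison with untreated skin, and adjusted p for the called ligands ran from 0.0891 to 0.196 with gefitinib and from 0.145 to 0.216 with afatinib, although no called ligand changed sign. With gefitinib replicate 1 left out, Nrg1 alone passed with gefitinib, and with afatinib replicate 2 left out 0 ligands passed with afatinib. Without afatinib replicate 1, the library with the most muscle RNA of the 4 from inhibitor-treated rats, 4 ligands passed with afatinib, Tgfa among them.

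Between the inhibitors, edgeR called 0 of the 8 ligands different, at a background of 0.0% of tested genes. Before adjustment 0 ligands were under 0.05, and the share of all genes at that level was not computed. The other tools, DESeq2 and limma-voom, also made 0 ligand calls, at a background of 0.189% and 0.0%. The doses differ, 30 mg/kg of afatinib and 80 mg/kg of gefitinib, and dosing ended at the rash, so compound, dose and time cannot be told apart. The 95% interval of afatinib minus gefitinib on the log2 scale ran from -1.13 to 1.60 for Nrg1, from -1.06 to 0.80 for Epgn and from -0.74 to 1.164 for Tgfa. For Areg it ran from -0.59 to 2.03, with values of 5.07 and 7.71 CPM with afatinib beside 5.53 and 2.23 CPM with gefitinib. Wider still were Ereg (-0.70 to 2.55) and Hbegf (-0.72 to 2.23), which with Btc were the 3 ligands whose afatinib libraries were both above the gefitinib libraries, at a background of 17.1% of tested genes. For Btc the interval ran from -0.85 to 2.19 and for Egf from -0.79 to 1.49. The missing calls do not show that the inhibitors act alike.

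Levels per gene length were compared between ligands in the deposited FPKM (fragments per kilobase of gene length). Its divisor per library is not the library's count total, and so carries a scaling between libraries. In untreated skin Hbegf led with 17.9 ± 16.6 FPKM (SD, n = 2), and even its lower library, at 6.18 FPKM, exceeded every other ligand there. Egf (1.162 ± 0.298 FPKM) and Epgn (1.064 ± 0.142 FPKM) followed and overlapped, then Tgfa at 0.68 ± 0.0905 FPKM. Btc, Areg and Ereg, from 0.221 down to 0.104 FPKM on average, overlapped with their neighbours in that order. Nrg1 was last, at 0.0385 ± 0.0387 FPKM, and its higher library (0.0659 FPKM) lay just under the lower one of Ereg (0.0665 FPKM).

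In skin with a rash that order was another. With gefitinib, Epgn led with 6.64 ± 2.69 FPKM (SD, n = 2), followed by Hbegf (4.13 ± 0.565), Areg (3.34 ± 1.96), Tgfa (2.11 ± 0.424) and Nrg1 (1.32 ± 0.0744), all in FPKM. Hbegf overlapped with Areg, and Areg with Tgfa. With afatinib, Hbegf (6.83 ± 1.53 FPKM), Epgn (5.98 ± 1.60 FPKM) and Areg (5.38 ± 1.46 FPKM) overlapped in turn, and Tgfa (2.38 ± 0.965 FPKM) overlapped with Nrg1 (1.502 ± 0.851 FPKM), which in turn overlapped with Egf. With both inhibitors Egf was sixth, at 0.56 ± 0.11 FPKM with gefitinib and 0.707 ± 0.309 FPKM with afatinib, and Ereg and Btc, below 0.37 FPKM on average, were last and overlapped. The order was the same in all 24 places with TMM-scaled CPM per kilobase. Within a library that measure differs from FPKM only by 1 constant, so this is no separate check of the order.

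As a share of the summed FPKM of the 8 ligands, Nrg1, Epgn, Areg and Tgfa together made up 75.4% and 68.2% with gefitinib and 59.4% and 70.7% with afatinib, against 20.4% and 6.13% in untreated skin. Hbegf made up 20.1% and 25.8% with gefitinib and 33.4% and 24.8% with afatinib, against 66.3% and 88.7% in untreated skin. A larger Hbegf level lowers every other share, and untreated replicate 2 alone had 29.6 FPKM of it. Tgfa's own share overlapped between groups, at 7.99% in untreated replicate 1 and 7.15% in afatinib replicate 1. These shares within a library do not depend on the scaling between libraries. The summed level does depend on that scaling. It was 22.5 and 14.5 FPKM with gefitinib and 23.7 and 23.2 FPKM with afatinib. The untreated libraries, at 9.32 and 33.4 FPKM, lay on either side of all 4. The 4 ligands were picked for this sum after their changes were known, so the shares are a description with no test.

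**Figure D3:**
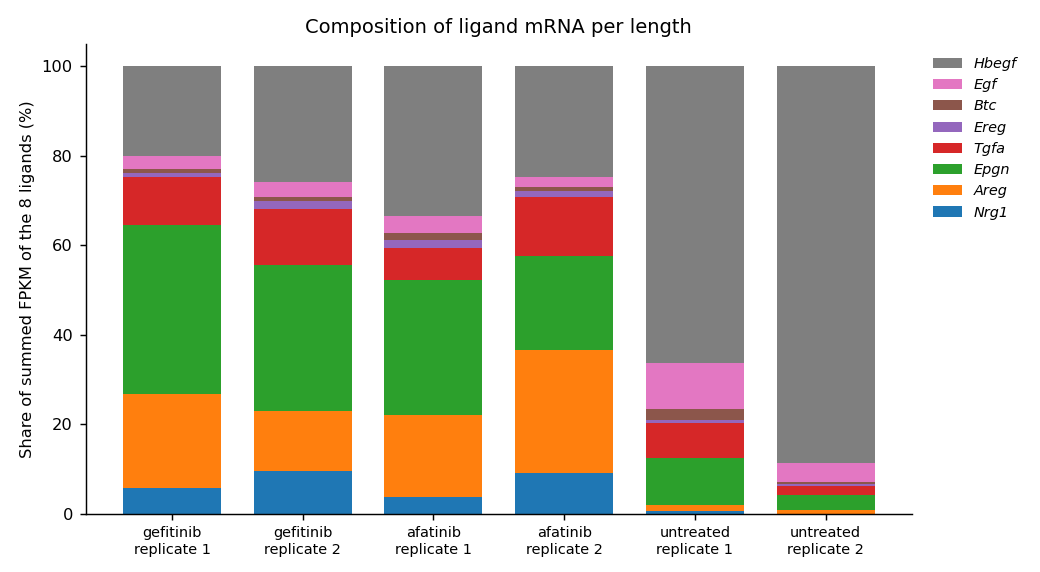
Share of each ligand in the summed FPKM of the 8 ligands, in percent, 1 stacked bar per library for gefitinib, afatinib and untreated skin. Hbegf fills 66.3% and 88.7% of the untreated bars and 20.1% to 33.4% of the bars from inhibitor-treated rats, where Epgn and Areg take larger shares.

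Calls and read depth differed along the cluster. Btc, Areg, Ereg and Epgn span 402 kb of chromosome 14. Areg, Ereg and Epgn follow each other within 112 kb on the minus strand with no other named gene between them, and Btc lies 249 kb from Areg on the plus strand. Areg and Epgn, the ends of this stretch, rose with both inhibitors. Ereg between them was higher in all 4 inhibitor libraries than in both untreated ones without passing the test, on 18 reads or fewer a library. The differences between the cluster's members were not tested. The named neighbours on either side of the cluster were Parm1, a mucin-like membrane protein gene, and Mthfd2l, a mitochondrial folate enzyme gene. Parm1 had 26.9 and 15.97 CPM with gefitinib and 19.9 and 35.7 CPM with afatinib, against 8.44 and 11.3 CPM in untreated skin. All its inhibitor libraries were higher, as both gefitinib libraries were for 38.8% of tested genes and both afatinib libraries for 31.5%. It did not pass with gefitinib (log2 fold change 1.12, edgeR adjusted p = 0.0881) or afatinib (1.495, adjusted p = 0.0827), and passed in their mean (1.31, adjusted p = 0.0497). Mthfd2l stood at 0.40 with gefitinib (adjusted p = 0.513) and 0.50 with afatinib (adjusted p = 0.522). No source used here says whether counting used the strand, so reads of overlapping transcripts on the other strand cannot be told apart.

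**Figure D4:**
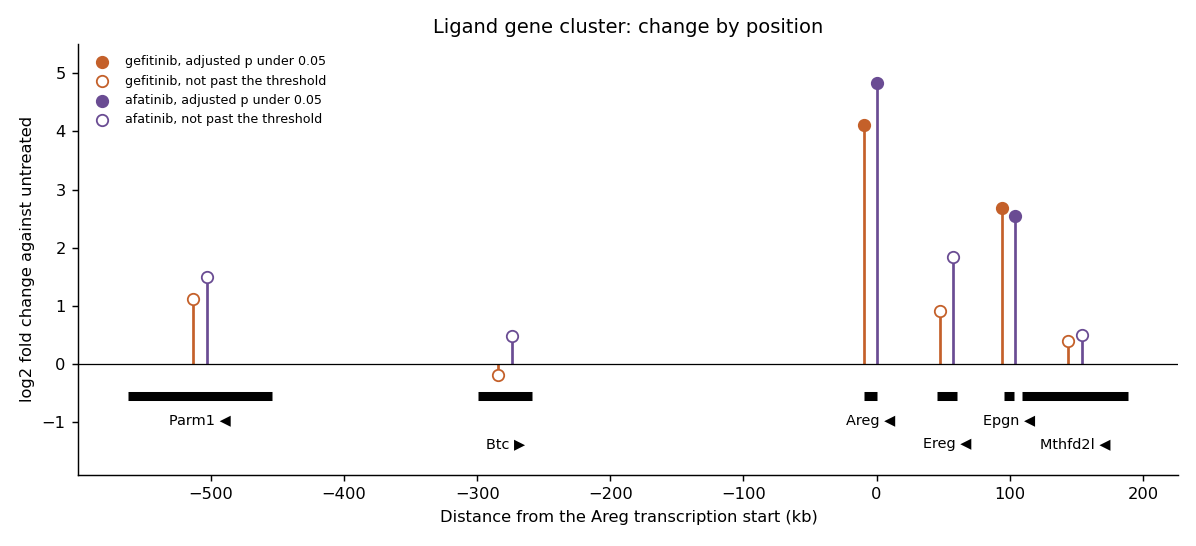
Log2 fold change against untreated skin of the cluster's 4 ligands and the named gene on each side, by distance from the Areg start in kb; black bars are genes, arrowheads their strand, and filled points passed an adjusted p of 0.05. Areg and Epgn passed with both inhibitors, and Ereg between them, Btc, Parm1 and Mthfd2l did not; the sign of Btc and that of Ereg with gefitinib changed under another scaling.

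As another scaling, each library was set to its summed basal keratinocyte markers, which were higher in all 4 inhibitor libraries, although 3 of the 8 were called higher in edgeR with gefitinib and 0 with afatinib (5 of 8 under 0.05 before adjustment, DESeq2 4 and limma-voom 0). Of all tested genes edgeR called 12.3% higher with gefitinib and 3.6% with afatinib. In either direction DESeq2 called 12.1% with afatinib and limma-voom 0.207%. Before adjustment at least 3484 of the 16398 tested genes were under 0.05 in edgeR with afatinib. Suprabasal keratinocyte markers, 4 of 7 in the file, overlapped between groups, at 265 to 295 CPM with gefitinib and 204 to 366 CPM with afatinib, against 146 to 278 CPM in untreated skin. That scaling moved the median log2 fold change of all genes to -1.10 with gefitinib and -1.39 with afatinib. With library size only, Nrg1, Areg, Epgn and Tgfa passed with both inhibitors, at a background of 18.7% and 7.62% called higher. Under the keratinocyte scaling Nrg1 and Areg passed as well, Nrg1 at 4.18 ± 0.856 with gefitinib (edgeR adjusted p = 5.90e-05) and 3.93 ± 0.854 with afatinib (adjusted p = 0.000307), Areg at 2.96 ± 0.863 (adjusted p = 0.00484) and 3.28 ± 0.866 (adjusted p = 0.00376). Epgn did not pass with gefitinib, at 1.503 ± 0.646 (adjusted p = 0.0553), or with afatinib, at 1.12 ± 0.643 (adjusted p = 0.128). Tgfa stood at 0.56 ± 0.639 with gefitinib (adjusted p = 0.48) and 0.34 ± 0.639 with afatinib (adjusted p = 0.644). Under this scaling the p-values matched a normal distribution of value over SE, whereas the TMM fit had 7.29 degrees of freedom. They are therefore smaller for the same ratio of value to SE and are not comparable with p-values under TMM. Relative to the median of all genes the values with gefitinib were 5.28 for Nrg1, 4.06 for Areg, 2.605 for Epgn and 1.66 for Tgfa. Their closeness to the TMM values follows by construction, since a scaling shifts all genes of a comparison nearly alike, and is no check of the calls.

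Under this scaling 30.0% of all tested genes were called lower with gefitinib and 35.0% with afatinib, and 4.63% and 1.91% were called higher. The 2 of 8 ligands called lower, Hbegf and Egf, are no larger a share than that. All calls and shares under this scaling rest on the smaller p-values of its fit, so they are not comparable with those under TMM. Hbegf fell by 3.47 on the log2 scale with gefitinib (edgeR adjusted p = 3.115e-05) and fell by 2.98 with afatinib (adjusted p = 0.000565). Egf fell by 2.23 with gefitinib (adjusted p = 0.00783) and fell by 2.10 with afatinib (adjusted p = 0.0171). Relative to the median of all genes Hbegf stood at -2.36 with gefitinib and -1.59 with afatinib, and Egf at -1.12 and -0.72. The Hbegf values include untreated replicate 2, on which its difference under TMM scaling rested.

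**Figure D5:**
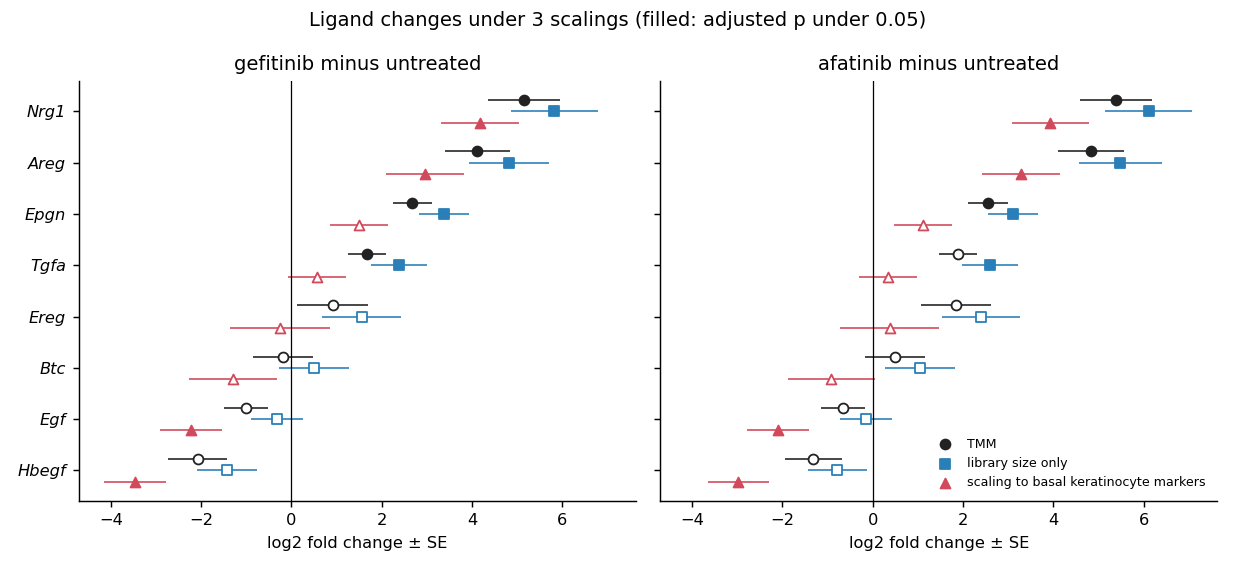
Log2 fold change ± SE of each ligand under TMM scaling, library size only and scaling to basal keratinocyte markers, for gefitinib and afatinib against untreated skin; filled points passed an adjusted p of 0.05. Nrg1 and Areg are filled under all 3 scalings in both panels, Hbegf and Egf are filled, on the lower side, under keratinocyte scaling only, and Ereg with gefitinib and Btc with either inhibitor change sign between scalings. Under keratinocyte scaling the p-values are smaller for the same ratio of value to SE than under TMM.

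The other ligands of the ERBB receptors are the neuregulins Nrg2, Nrg3 and Nrg4, of which Nrg2 and Nrg4 were found by name and tested. Nrg2, a ligand of ERBB3 and ERBB4 like Nrg1, had 12.8 and 6.30 CPM with gefitinib and 3.31 and 13.9 CPM with afatinib, against 1.73 and 1.46 CPM in untreated skin. All inhibitor libraries were higher, as both gefitinib libraries were for 38.8% of tested genes and both afatinib libraries for 31.5%. Nrg2 rose with gefitinib (log2 fold change 2.58 ± 0.728, edgeR adjusted p = 0.0496) and in the mean of both inhibitors (2.51 ± 0.678, adjusted p = 0.0471). The afatinib value of 2.44 ± 0.726 did not pass (adjusted p = 0.108). At 1 of 2 tested this stood at a background of 12.3% and 11.0% of genes called higher. Of these ligands limma-voom called 0 in any comparison, at a background of 15.6% of tested genes with gefitinib and 0.207% with afatinib. DESeq2 called 1 with gefitinib and 1 with afatinib, at 28.6% and 12.1%, and 1 in the mean, where no background was computed for these tools. Nrg4, an ERBB4 ligand, stood at 0.91 ± 0.523 with gefitinib (adjusted p = 0.241) and 0.83 ± 0.525 with afatinib (adjusted p = 0.396).

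Of the 4 receptors 3 were tested, and edgeR called 1 higher with gefitinib and in the mean of both inhibitors, Erbb3, the kinase-impaired receptor of neuregulins, at a background of 12.3% and 11.0%. With afatinib edgeR called 0, with 2 under 0.05 before adjustment, as were at least 3484 of the 16398 tested genes. DESeq2 called 1 with gefitinib and 1 with afatinib, at a background of 28.6% and 12.1% of tested genes, and limma-voom 1 and 0, at 15.6% and 0.207%. In the mean DESeq2 called 2 and limma-voom 1, and no background was computed for them there. Erbb3 had 47.5 and 50.9 CPM with gefitinib and 22.9 and 51.2 CPM with afatinib, against 17.6 and 10.9 CPM in untreated skin, and afatinib replicate 1 was nearest to the untreated libraries. Erbb3 rose with gefitinib by 1.79 ± 0.421 on the log2 scale (edgeR adjusted p = 0.0316), whereas the afatinib value was 1.38 ± 0.417 (adjusted p = 0.111). Egfr stood at 1.198 ± 0.699 with gefitinib (adjusted p = 0.247) and 1.45 ± 0.702 with afatinib (adjusted p = 0.28), and Erbb2 at 1.48 ± 0.655 (adjusted p = 0.144) and 1.55 ± 0.656 (adjusted p = 0.223). In afatinib replicate 1, Egfr was at 9.23 CPM, below both untreated libraries (12.6 and 10.5 CPM). Erbb4 was nearly undetected, with 0 reads in both gefitinib libraries, 0 and 2 with afatinib, and 2 and 3 in untreated skin, and it was not tested.

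Of 14 genes of ligand shedding and trafficking, 1 rose and 2 fell with gefitinib, at a background of 12.3% and 5.45% of tested genes. In the mean of both inhibitors 0 rose and 1 (Adam19) fell, at 11.0% and 4.93%. With afatinib 0 passed edgeR's test, at 3.6% higher and 0.372% lower. Before adjustment 1 was under 0.05 with afatinib, as were at least 3484 of the 16398 tested genes. DESeq2 and limma-voom made 0 calls with afatinib, at 12.1% and 0.207%. With gefitinib they called 3 and 2 of the list, at a background of 28.6% and 15.6%. In the mean they called 3 and 0, and no background was computed for them there. Rhbdf2, the iRhom protein that carries the sheddase ADAM17 to the cell surface, had 36.9 and 49.0 CPM with gefitinib and 21.0 and 38.8 CPM with afatinib, against 16.04 and 19.3 CPM in untreated skin. It rose by 1.28 ± 0.344 on the log2 scale with gefitinib (edgeR adjusted p = 0.0441) and did not pass in the mean (adjusted p = 0.0628). Adam19 and Adam9, both of the family of membrane metalloproteases, fell with gefitinib by 1.28 ± 0.344 (adjusted p = 0.0447) and by 0.92 ± 0.234 (adjusted p = 0.0385), and Adam9 did not pass in the mean (adjusted p = 0.063). Adam17, the main sheddase of Areg, Epgn, Tgfa and Hbegf, stood at -0.02 ± 0.266 with gefitinib (adjusted p = 0.96) and 0.06 ± 0.267 with afatinib (adjusted p = 0.92).

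Of 11 genes that restrain ERBB receptors, 2 rose and 2 fell with gefitinib and likewise in the mean of both inhibitors, where 12.3% and 5.45% of tested genes, and 11.0% and 4.93%, were called higher and lower. In that list 0 passed edgeR's test with afatinib, at a background of 3.6% higher and 0.372% lower. Before adjustment 3 were under 0.05 with afatinib, as were at least 3484 of the 16398 tested genes. With afatinib DESeq2 made 1 call and limma-voom 0, at a background of 12.1% and 0.207% of tested genes. With gefitinib they made 4 and 4 calls, at a background of 28.6% and 15.6%. In the mean they made 4 and 2, and no background was computed for them there. Lrig3, of the LRIG family of membrane proteins, rose by 1.69 ± 0.377 with gefitinib (edgeR adjusted p = 0.0279), and Ptpn2, a tyrosine phosphatase, by 1.07 ± 0.247 (adjusted p = 0.0305). Lrig1, which promotes degradation of EGFR, fell by 1.196 ± 0.286 (adjusted p = 0.0328), and Errfi1, whose product MIG6 binds and inhibits the EGFR kinase, fell by 0.94 ± 0.252 (adjusted p = 0.0434). Errfi1 had 67.0 and 57.1 CPM with gefitinib and 71.8 and 56.5 CPM with afatinib, against 116 and 123 CPM in untreated skin. The inhibitor and untreated libraries did not overlap. Of all tested genes 33.9% had both gefitinib libraries below both untreated ones, and 21.8% both afatinib libraries. With afatinib the log2 fold change of Errfi1 was -0.90 ± 0.252 and did not pass (edgeR adjusted p = 0.0935).

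Of 10 feedback genes of the ERK pathway, 0 passed edgeR's test in any comparison, where 12.3% of tested genes were called higher and 5.45% lower with gefitinib, 3.6% and 0.372% with afatinib, 11.0% and 4.93% in the mean, and 0.0% between the inhibitors. Before adjustment 1 was under 0.05 with gefitinib, 3 with afatinib and 3 in their mean. Of the 16398 tested genes at least 3579, 3484 and 3238 were under 0.05 before adjustment in these comparisons, so the counts single out nothing about this list. DESeq2 called 0 with gefitinib and 0 with afatinib, at a background of 28.6% and 12.1% of tested genes, and limma-voom 0 and 0, at 15.6% and 0.207%. In the mean DESeq2 called 1 and limma-voom 0, and no background was computed for them there. Spry1, a Sprouty inhibitor of receptor tyrosine kinase signalling, had 46.0 and 32.2 CPM with gefitinib and 43.9 and 36.4 CPM with afatinib, against 68.1 and 57.8 CPM in untreated skin, with a log2 fold change of -0.67 ± 0.227 in the mean of both (adjusted p = 0.0838). Dusp6, the phosphatase that ERK induces against itself, had 32.7 and 22.1 CPM with gefitinib and 31.5 and 26.6 CPM with afatinib, against 16.04 and 19.1 CPM in untreated skin, at 0.68 ± 0.25 in the mean (adjusted p = 0.101).

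The genes whose pattern over the 6 libraries was most like that of each ligand were found among 13039 named genes with a mean of at least 1 CPM in 1 group, by the root mean square difference in centred log2 CPM. For Nrg1 they were Trex2 (0.322) and Ehf (0.326), for Areg Il36g (0.37) and Slc6a14 (0.438), and for Epgn Crabp2 (0.283) and Fsip1 (0.293). For Tgfa they were Elovl3 (0.115) and Slc2a1 (0.117), and for Ereg Isg15 (0.152) and Hcst (0.172). Hbegf was most like Cacna2d1 (0.211) and Ano5 (0.233), both of which were also highest in untreated replicate 2, at 133 and 88.4 CPM. Btc was most like Gbp2 (0.0924) and Nckap1l (0.107), and Egf most like Snx21 (0.0652) and Dolk (0.0702). All points of a pattern share the same 6 libraries and their tissue make-up, and a ligand with a narrow range gives smaller differences by construction.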

How the data were processed

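The labels' protocols state that flash-frozen back skin was extracted with Trizol and that TruSeq RNA libraries were made from total RNA. HISAT2 2.0.5, DESeq2 1.16.1 and featureCounts 1.5.0-p3 are named in the submitters' processing notes; no source used here gives the build, annotation or strand setting. Per the labels and files, the deposited count table holds whole reads per gene without scaling, and also the gene length in bases used for levels per length. The deposited FPKM table equals, by a check of its values, the count over the gene length over a library-specific divisor of 14331258 to 27387101 reads, so it carries a scaling between libraries.

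Columns were matched to samples by the code in the sample titles. The filterByExpr function of edgeR at its defaults kept 16398 loci. Counts were TMM-scaled and fitted with edgeR 4.0.16 (quasi-likelihood, R 4.3.3), the model having a term for each of the 3 groups, fitted to the 6 libraries together, which left 3 residual degrees of freedom. P-values are two-sided and were adjusted by Benjamini-Hochberg over all tested genes of a comparison, with a threshold of 0.05. SEs were derived from the F statistic, and the test was checked on simulated data. The 1342 loci with no gene name held 1.68% to 2.54% of a library's counts and stayed in library sizes and tests.

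The 8 ligands, the pathway and marker lists and the rule for named genes were chosen with earlier results of these data known. The rule named all ligands, up to 4 genes per pathway list by p in the mean of both inhibitors, 2 genes of like pattern per ligand, and the neighbours of ligands within 1 Mb of each other; Egfr, Erbb2 and Nrg4 fall in it, while Adam17 and Erbb4 were named after their values were seen. Alternatives were other scalings (library size only, DESeq2 size factors, basal keratinocyte markers), no filter, DESeq2 1.42.0, limma-voom (limma 3.58.1), fits of the compared groups only, a replicate block and leaving out each library. The replicate numbers tie to no shared animal, batch or day in the labels.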

Additional observations from a re-analysis of the deposited data

How the results depend on the processing

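Over the edgeR alternatives run, the called ligands kept their direction in every comparison with untreated skin. The number of ligands called ran from 0 to 5 with gefitinib, 0 to 4 with afatinib, 0 to 4 in their mean and 0 to 0 between the inhibitors as each library was left out. With limma-voom, and with only the compared groups in the fit, 0 ligands passed with afatinib (adjusted p from 0.0749 to 0.0856 and from 0.0571 to 0.0721 for the 3 called ligands), and no fit of the compared groups was made for the mean. Without gefitinib replicate 1 or 2, Areg alone passed with afatinib. Hbegf was called lower with gefitinib by DESeq2, without the filter and without afatinib replicate 2. Btc and Ereg did not enter the fit of gefitinib and untreated libraries alone. Library size only moved the median of all genes by 0.73 with gefitinib and 0.71 with afatinib, and the ligand calls were the same plus Tgfa with afatinib. For these alternatives the cause was not tested.

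Reversed signs were few and concerned values that had not passed. With basal keratinocyte scaling they were Ereg with gefitinib (-0.25), Btc with afatinib (-0.92) and in the mean (-1.11), and, afatinib minus gefitinib, Nrg1 (-0.25) and Tgfa (-0.22). With library size only it was Btc with gefitinib (0.50). Without untreated replicate 2 it was Hbegf with afatinib (0.21). Without gefitinib replicate 1 they were Btc in the mean (-0.047) and Epgn between the inhibitors (0.35), and without gefitinib replicate 2 Tgfa between them (-0.014). Also between the inhibitors, they were Nrg1 (-0.53), Epgn (0.12) and Tgfa (-0.30) without afatinib replicate 2, and Egf (-0.15) without afatinib replicate 1. Leaving out each library in turn, the range was -2.052 to 0.21 for Hbegf with afatinib and -0.047 to 0.22 for Btc in the mean, and, between the inhibitors, -0.53 to 0.72 for Nrg1, -0.51 to 0.35 for Epgn, -0.30 to 0.58 for Tgfa and -0.15 to 0.74 for Egf. In all, 362 alternative log2 fold changes kept direction and side of the threshold, 47 lost a call, 15 gained one and 14 reversed.

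With the replicate number as a block, 3 ligands were called with gefitinib (Tgfa at an adjusted p of 0.0576), 3 with afatinib, 4 in the mean and 0 between the inhibitors. Same-numbered libraries did not deviate together: the correlation of replicate differences was -0.174 for gefitinib and afatinib, 0.0331 for gefitinib and untreated, and 0.0374 for afatinib and untreated. Depth limits Ereg, Btc and the untreated levels of Nrg1 and Areg, which rest on 18 reads or fewer a library.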
